A study of Danio rerio with 6 samples.

Results

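The cell cycle and DNA replication genes described here are 98 of the 8793 zebrafish genes that had a probe set of their own on the array. They were taken by symbol: origin recognition and minichromosome maintenance genes (orc, mcm), DNA polymerases, primase, clamp and clamp loader, ribonucleotide reductase, E2F factors, cyclins A, B, D and E, cyclin-dependent kinases and their relatives, cdc genes other than cdc42, and kinases, checkpoint and centromere proteins of mitosis. Where several probe sets of a gene were on the array, the 1 with the highest mean log2 intensity over the 6 arrays stands for the gene.

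Both groups were AB strain embryos of wild-type genotype at 52 hours post fertilization (hpf). Retina with RPE was dissected retina to which the retinal pigment epithelium (RPE), the pigmented layer that lies against the photoreceptors, was still attached, and retina was the tissue without it. Each group had 3 pools, each of 10 tissues and labelled by its depositors as a biological replicate, and 33 ng of RNA per pool went through 2 cycles of labelling before hybridisation to an Affymetrix array. The study set the groups side by side to estimate what the epithelium expresses.

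A dividing cell first licenses its replication origins: the origin recognition complex and cdc6 load the MCM helicase, and geminin keeps licensed origins from being loaded again. At the G1 to S boundary, cyclin D and cyclin E kinases release E2F transcription factors, which turn on replication genes, and primase, polymerases, the PCNA clamp and its loader then copy the DNA. Cyclin B with Cdk1 drives entry into mitosis, and the spindle checkpoint holds the chromosomes until all are attached. In the embryonic retina, progenitor cells divide near the apical surface, next to the RPE, and most newborn neurons leave the cycle.

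The tissue labels were checked against marker genes. All 6 RPE and melanin markers measured, of 9 listed, were higher in retina with RPE, and their summed intensity was 2697 to 3791 there and 497 to 565 in retina. Markers of other tissues were higher there too, with none lower. These were 8 of 9 mesenchyme and cartilage, 6 of 6 neural crest and pigment cell, and 3 of 6 muscle markers. Also higher were 4 of 6 leukocyte, 2 of 4 erythrocyte, 3 of 3 endothelium and 3 of 5 skin and cornea markers. Over all genes 19.4% were higher and 17% lower, at an adjusted p under 0.05 in limma. Of 11 retinal neuron markers 9 were lower in retina with RPE and none higher, with a median log2 change of -0.61 and a summed intensity of 11918 to 12986, against 16498 to 20409 in retina. Of 9 retinal progenitor markers, ccnd1 among them, 2 were higher and 2 lower. The log2 change was 0.54 for rx2 and 0.44 for pax6b, and -0.74 for both her4.2 and sox2. The summed intensity of the 9 was 16802 to 17630 in retina with RPE and 18152 to 18739 in retina. Within it, pax6a and pax6b had means of 4441 and 3820 in retina with RPE, and 4959 and 2809 in retina. In such bulk tissue, fewer cells of a type and less RNA per cell cannot be told apart, and the part of these cell types in the results that follow was not tested. Array medians were 73.2, 73.2 and 74.5 in retina with RPE and 69.1, 68.7 and 69.6 in retina, and the upper quartiles were 265 to 271 in retina with RPE and 285 to 293 in retina, so the spread of values was narrower in retina with RPE.

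The cell cycle genes did not move as a block. Of the 98 genes, 16 were called higher and 18 lower in retina with RPE, at an adjusted p under 0.05 in limma, and 64 were not called. The 34 called genes are 34.7% of the members, against 36.4% of all 8793 genes called in the same fit. By direction, 16.3% of the members were called higher and 18.4% lower, against 19.4% and 17% of all genes, so the share of called members was close to that of the array in either direction. The median log2 change over the members was -0.03, against 0.04 over all genes. The pools of the groups did not overlap for 43 members, or 43.9%, against 50.7% of all genes. Of these, 20 were higher and 23 lower in retina with RPE, and over all genes 28.3% were apart and higher and 22.4% apart and lower. By size, 8 called members, or 8.16%, differed by at least 1.5-fold, against 10% of all genes. The 4 that differed by at least 2-fold were e2f3, e2f8, orc6 and pole3, all of them lower, and they are 4.08% of the members, against 1.43% of all genes. The highest change was that of the checkpoint kinase ttk, at log2 0.72 ± 0.087 (SE). Leaving out an array leaves fewer pools to test, and the counts of calls changed. They were 7 to 17 higher and 11 to 17 lower when each array was left out, with 7 and 12 without retina with RPE 3, 9 and 11 without retina with RPE 2, 11 and 11 without retina with RPE 1, and 10 and 17 without retina 1.

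**Figure D1:**
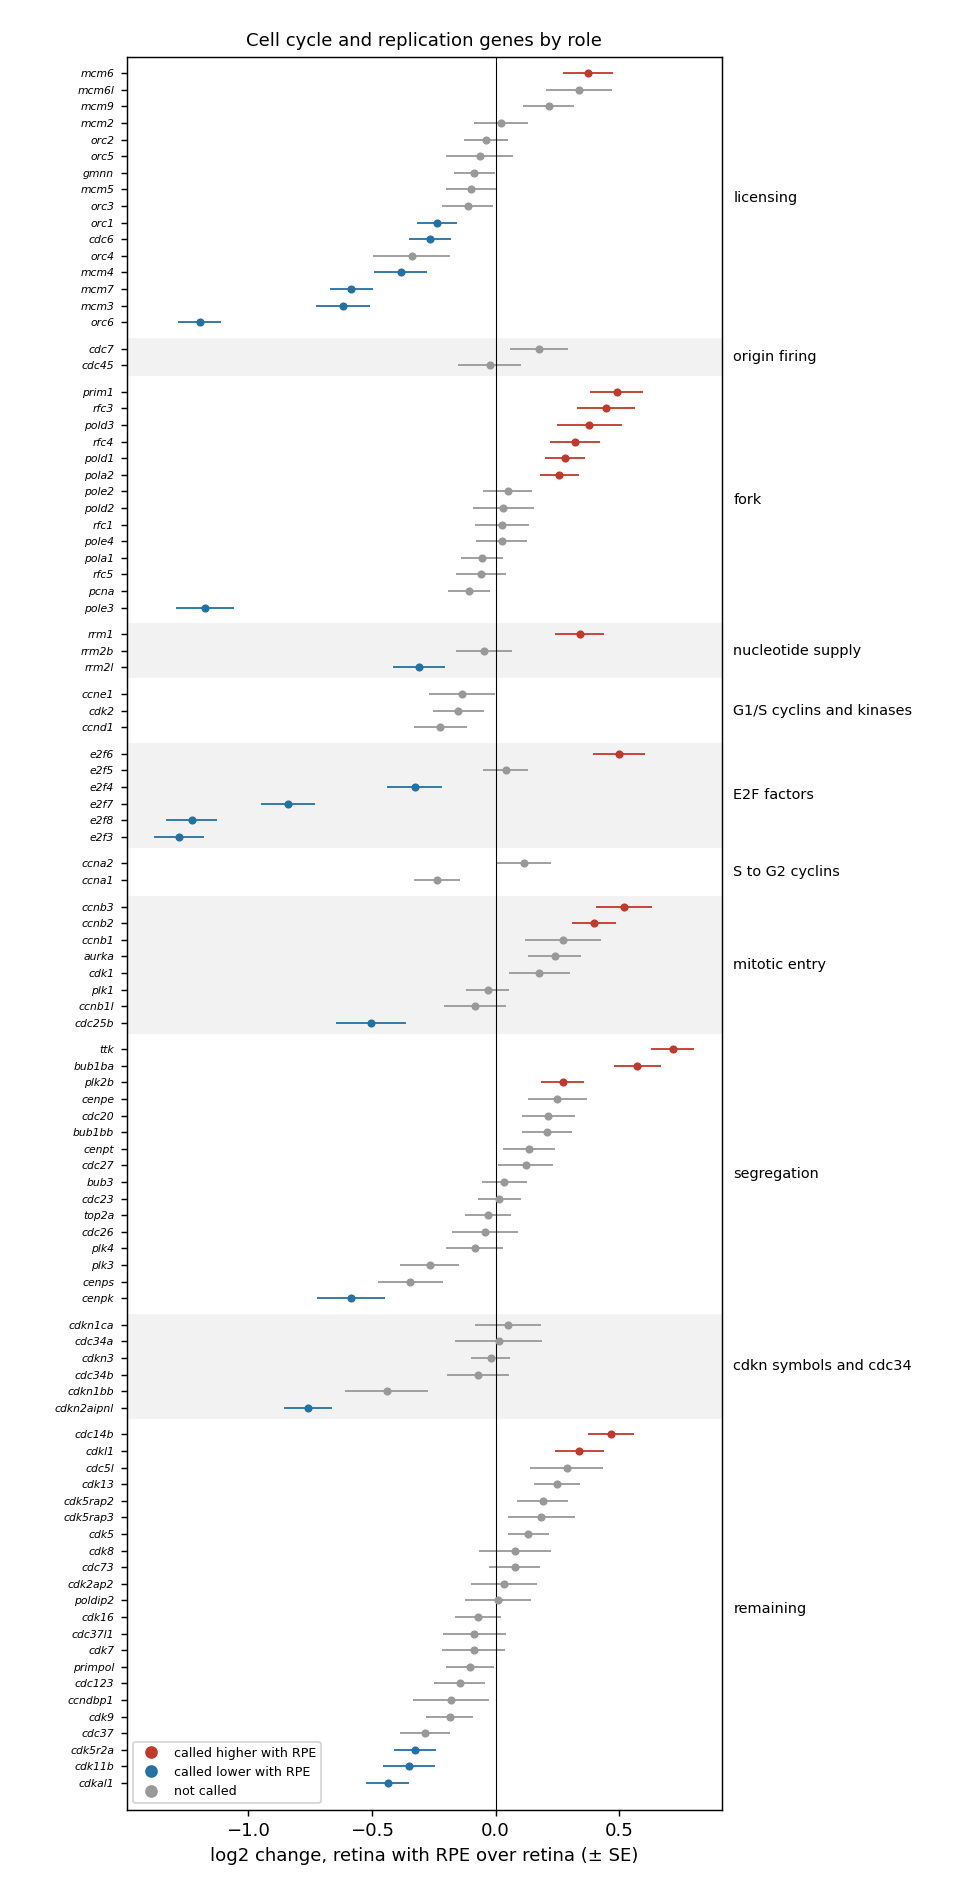
Log2 change of retina with RPE over retina for each of the 98 genes, grouped by role, with the standard error of limma over 3 pools per group; red and blue mark genes called higher and lower, grey those not called. The points furthest to the left are e2f3, e2f8, orc6 and pole3, and the highest points are ttk and bub1ba.

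The genes that license origins lay mostly below 0. Of 16, 6 were called lower and 1 higher, 12 had a negative log2 change, and the median was -0.11. Over all genes 17% were called lower and 19.4% higher, 45.1% had a negative change, and the median was 0.04. Leaving out retina 3 or any 1 of the 3 pools of retina with RPE left 3 called lower in place of 6. All 6 origin recognition genes had a negative change, and 2 of them were called. The gene orc6, for the smallest subunit of the complex, had 171, 173 and 171 in retina with RPE, against 385, 426 and 371 in retina. The 3 pools with RPE were nearly equal, and the nearest retina pool was over them by more than the whole spread of either group. Its log2 change was -1.20 ± 0.0862 (SE), or 2.29-fold lower (adjusted p = 5.79e-05). Of the other subunits, orc1 was called at -0.24 (adjusted p = 0.0429), and orc2, orc3, orc4 and orc5 lay at -0.04, -0.11, -0.34 and -0.06 and were not called. The helicase loader gene cdc6 was lower at -0.27 (adjusted p = 0.0386). The calls of orc1 and cdc6 were lost without retina 3 or any 1 of the 3 pools of retina with RPE. The gene gmnn, for geminin, had 86.9 ± 4.86 in retina with RPE and 92.2 ± 0.224 in retina (SD, n = 3 each), a change of -0.09 that was not called.

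The 6 subunits of the MCM2 to MCM7 helicase, which work as 1 ring, did not share a direction. The gene mcm7 had 1213, 1275 and 1324 in retina with RPE, against 1843, 2048 and 1824 in retina. Every pool with RPE was lower than every retina pool, and the log2 change was -0.58 ± 0.0877 (adjusted p = 0.00131). The gene mcm3 had 420.4, 496 and 429 in retina with RPE, against 606, 708 and 751 in retina, again without overlap, at -0.62 ± 0.109 (adjusted p = 0.00266). A dimmer probe set of mcm3 changed by 0.08 and was not called, so the lower level rests on 1 of its 2 probe sets. The gene mcm4 was lower at -0.38 (adjusted p = 0.0205), a call that was lost without any 1 of retina 3 and the 3 pools with RPE (adjusted p = 0.0517 to 0.0666), and under cyclic loess and quantile normalization. In the other direction, mcm6 had 108, 114 and 124 in retina with RPE, against 82.3, 85.3 and 99.7 in retina. Its groups did not overlap, at a change of 0.37 ± 0.101 (adjusted p = 0.0183), and the call was lost without retina 1, retina with RPE 2 or retina with RPE 3 (adjusted p = 0.056, 0.0547 and 0.0748). Neither mcm2, at 0.02, nor mcm5, at -0.10, was called. The related genes mcm6l, at 0.34, and mcm9, a helicase of DNA repair in other vertebrates, at 0.21, were not called. A dimmer probe set of mcm6l was called higher, at 0.27 (adjusted p = 0.0431).

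**Figure D2:**
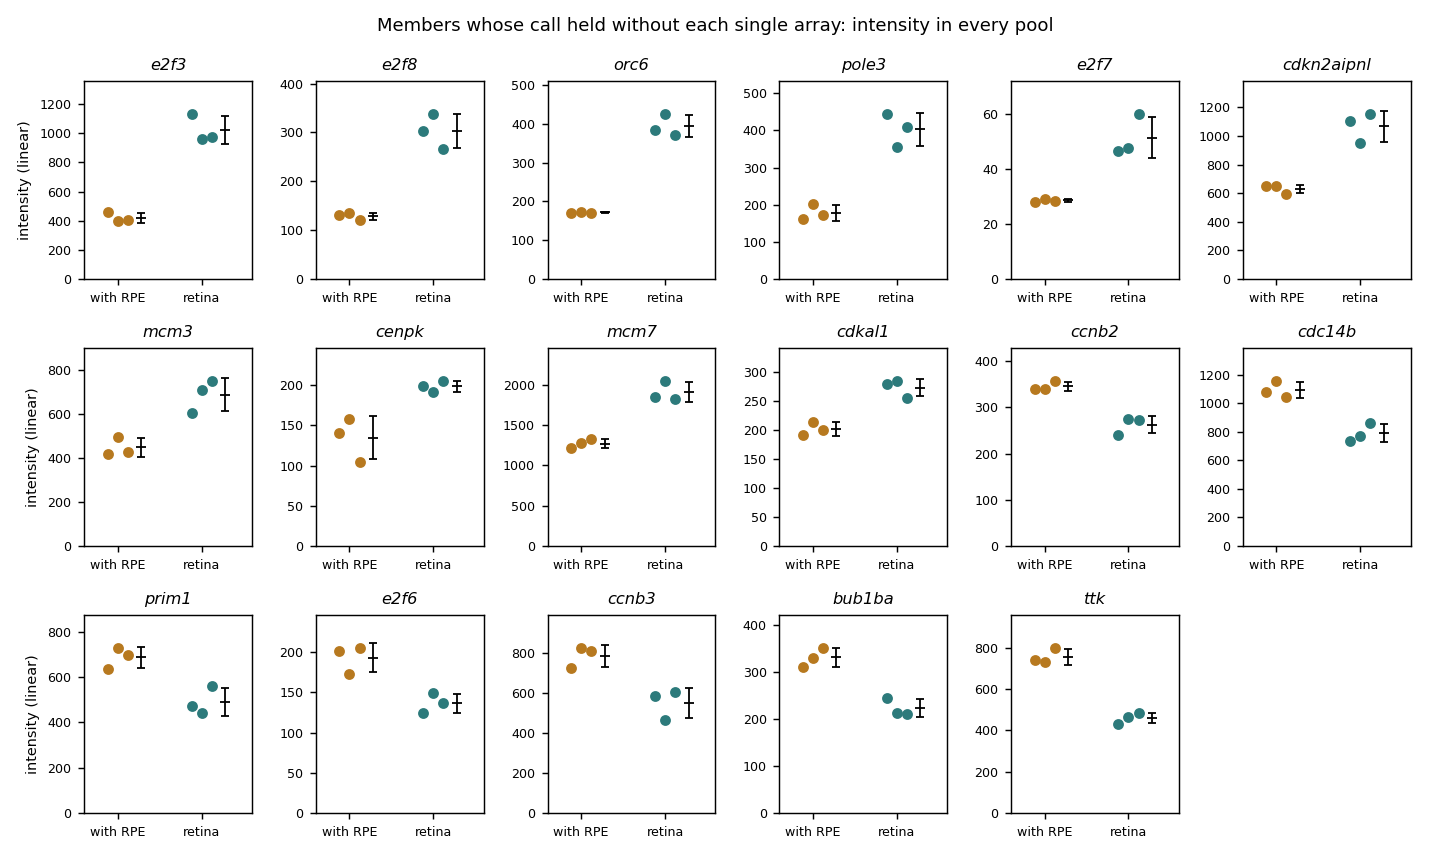
Linear intensity in each pool for the 17 named genes whose call held when any single array was left out, with retina with RPE left of retina in each panel and the mean ± SD (n = 3) beside the points. By their brightest probe sets, 10 of the 17 genes are lower and 7 higher in retina with RPE. Among the 7, ccnb3 has other probe sets that were called lower. In no panel do the groups overlap, as the rule for naming called genes required. Each panel has its own axis from 0.

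Of the genes that fire licensed origins, neither was called. The kinase gene cdc7 changed by 0.18 and had 1 high pool with RPE, 369 against 282 and 277 in the others. The helicase cofactor gene cdc45 changed by -0.02.

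Of the 14 genes that work at the replication fork, 6 were called higher and 1 lower, 10 had a positive change, and the median was 0.04, against 19.4% of all genes called higher, 17% called lower and 54.9% with a positive change. The count of 6 fell whichever array was left out: it was 2, 3 and 5 without retina 1, 2 and 3, and 2, 2 and 1 without retina with RPE 1, 2 and 3. The primase gene prim1, whose product makes the RNA primers, had 637, 729 and 698 in retina with RPE, against 473, 442 and 561 in retina. The groups were apart, at a log2 change of 0.49 ± 0.108 (adjusted p = 0.00748). Of the 4 fork genes called higher that were followed array by array, prim1 was the 1 that kept its call throughout. Clamp loader genes rose by 0.45 (rfc3, adjusted p = 0.0159) and 0.32 (rfc4, adjusted p = 0.0359), whereas rfc1 and rfc5 lay at 0.03 and -0.06 and were not called. The call of rfc3 was lost without retina with RPE 1 or 3, and that of rfc4 without any array other than retina 3 and retina with RPE 1. A dimmer probe set of rfc4 lay at 0.11 and was not called (adjusted p = 0.575). Of the polymerase delta genes, the catalytic pold1 was higher at 0.28 (adjusted p = 0.0233), with a change of the same size on its other probe set, and the accessory pold3 at 0.38 (adjusted p = 0.0481). The call of pold3 was lost without any array other than retina 2. The polymerase alpha subunit gene pola2 was higher at 0.26 (adjusted p = 0.0311), and the catalytic subunit gene pola1, at -0.05, was not called. Only prim1 stayed called higher without retina with RPE 3, so pola2 and pold1 lost their calls there as well.

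The fork gene called lower belongs to polymerase epsilon. This gene, pole3, for a small accessory subunit with a histone fold, had 162, 203 and 172 in retina with RPE, against 444, 356 and 410.3 in retina. The highest pool with RPE was far below the lowest retina pool, and the log2 change was -1.17 ± 0.116, or 2.26-fold lower (adjusted p = 0.000184). Its partner subunit gene pole4 had 129.8, 143 and 129 in retina with RPE, against 118, 129 and 149 in retina, with overlapping groups and a change of 0.02. The second subunit gene pole2, at 0.05, was not called either. The clamp gene pcna, a common marker of cells in the cycle, had 5774, 6576 and 6039.9 in retina with RPE, against 6664, 6488 and 6616 in retina. The groups overlapped through retina with RPE 2, and the change of -0.11 ± 0.0853 was not called (95% interval of the fold 0.814 to 1.06, adjusted p = 0.359).

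The genes of nucleotide supply encode the subunits of ribonucleotide reductase. The large subunit gene rrm1 was higher, with 2822, 3048 and 3056 in retina with RPE, against 2183, 2242 and 2651 in retina (log2 0.34, adjusted p = 0.0245). The gene rrm2l, named as a relative of the small subunit, was lower, with 3486, 3951 and 4395 in retina with RPE, against 4649, 4754 and 5220.1 in retina (log2 -0.31, adjusted p = 0.0429). The groups of both genes were apart by less than their own spread. The call of rrm1 was lost without any array other than retina 3 and retina with RPE 1, and that of rrm2l without any array other than retina with RPE 3. The gene rrm2b changed by -0.05 and was not called, and rrm2 was not analysed here.

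The cyclins and kinase of the G1 to S boundary gave no call among 3 genes, all with a negative change. The gene ccnd1, for cyclin D1, which retinal progenitors express strongly, had 2469.8, 2592 and 2441 in retina with RPE, against 3005, 3273 and 2525 in retina. The groups overlapped through retina 3, the change was -0.22 ± 0.106, and its fold had a 95% interval of 0.728 to 1.01 (adjusted p = 0.127). Without retina 3 it was called lower, at -0.33 (adjusted p = 0.0294), and its other probe set lay at -0.29 and was not called. The genes cdk2 and ccne1, a kinase and its cyclin partner, changed by -0.15 and -0.14 without a call, and cdk4 and ccne2 were not analysed here.

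The E2F factors held the lowest median of the role groups, -0.58. Of 6 genes, 4 were called lower and 1 higher, against 17% and 19.4% of all genes. Among them e2f3, which activates genes for entry into S phase in mammals, had 461, 396 and 404 in retina with RPE, against 1132, 959 and 973 in retina. All 3 pools with RPE were far below all 3 retina pools, and the log2 change was -1.28 ± 0.101, or 2.43-fold lower (adjusted p = 7.09e-05). The repressor gene e2f8 had 131, 135 and 121 in retina with RPE, against 303, 338 and 267 in retina. Its change was -1.23 ± 0.104, or 2.34-fold lower (adjusted p = 9.56e-05). Its close relative e2f7 had 28.1, 29.2 and 28.4 in retina with RPE, against 46.6, 47.7 and 60 in retina. It lay among the dimmer genes, had separate groups, and was 1.79-fold lower (log2 -0.84 ± 0.108, adjusted p = 0.000595). The activator e2f3 and the atypical repressors e2f7 and e2f8 thus differed in the same direction.

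The remaining E2F genes encode repressors in mammals. The gene e2f6 was higher, with 201, 173 and 206 in retina with RPE, against 125, 149 and 136 in retina (log2 0.50 ± 0.103, adjusted p = 0.00569). The gene e2f4 was called lower by its brightest probe set, with 1656, 1713 and 1548 in retina with RPE, against 2350.4, 2088 and 1767 in retina (log2 -0.33, adjusted p = 0.0458). That call was lost without any array other than retina 3. Another probe set of e2f4 was called higher, at 0.38 (adjusted p = 0.0196), so the direction of e2f4 is not settled. This other probe set was far dimmer, with means of 37.7 in retina with RPE and 28.8 in retina. The gene e2f5 changed by 0.04 and was not called. The probe sets of all 6 E2F genes carry the letter A in their identifiers, and a count over probe sets marked S alone holds none of them.

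The cyclin A genes, which act in S phase and G2, were not called. The gene ccna2 had 846, 837 and 934 in retina with RPE, against 923, 793 and 712 in retina, with overlapping groups and a change of 0.12 ± 0.109. The gene ccna1, a cyclin of germ cells in mammals, changed by -0.24 with separate groups and was not called (adjusted p = 0.0732).

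Genes of mitotic entry had a median change of 0.21. Of 8, 2 were called higher and 1 lower, that is 25% and 12.5%, against 19.4% and 17% of all genes. The gene ccnb2, for cyclin B2, had 341, 339 and 357 in retina with RPE, against 241, 275 and 272 in retina. Its groups did not overlap, and its change of 0.40 ± 0.0879 (adjusted p = 0.00765) kept its call without any single array. The gene ccnb3 was called higher by its brightest probe set, with 723, 825 and 809 in retina with RPE, against 584, 465 and 605 in retina (log2 0.52 ± 0.115, adjusted p = 0.00766). Its 3 other probe sets were dimmer. They lay at 0.29, not called, and at -0.46 and -0.49, both called lower, so the gene has no single direction here. The probe sets called lower were far dimmer, with means of 25.7 and 19.4 in retina with RPE, against 35.4 and 27.3 in retina. The gene ccnb1, at 984, 1107 and 1022 in retina with RPE, against 932, 654 and 1036 in retina, overlapped through retina 3 and was not called (log2 0.27, adjusted p = 0.192), but it was called higher under quantile normalization, at 0.45 (adjusted p = 0.0497). The brightest probe set of ccnb3 and that of ccnb1 are of types that can match several transcripts.

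Of the mitotic kinases, neither cdk1, the partner of cyclin B, nor aurka, which acts at the spindle poles, was called. The gene cdk1 had 952, 1086 and 1064 in retina with RPE, against 822, 839.5 and 1106 in retina, a change of 0.18 (adjusted p = 0.293). The gene aurka had 612, 684 and 615 in retina with RPE, against 478, 535 and 613 in retina, a change of 0.24 (adjusted p = 0.108). In both genes retina 3 was the array that reached the level of the pools with RPE. Without it, cdk1 was called at 0.31 (adjusted p = 0.0406), aurka at 0.33 (adjusted p = 0.0378), and 4 mitotic entry genes in place of 2. Under cyclic loess and quantile normalization aurka was called as well, at 0.38 in both. The polo kinase gene plk1 had 1799.9, 1848 and 1899.9 in retina with RPE, against 1749.5, 1933 and 1997 in retina, a change of -0.03 that turned to 0.11 and 0.13 under those scalings, uncalled throughout. The gene ccnb1l lay at -0.08 and was not called.

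The phosphatase gene cdc25b, whose product activates Cdk1, was the mitotic entry gene called lower. It had 522, 615 and 535 in retina with RPE, against 810.2, 952 and 635 in retina. The groups were apart by a small gap, at -0.50 ± 0.141 (adjusted p = 0.0212). The call was lost without retina 1, retina with RPE 1 or retina with RPE 3 (adjusted p = 0.0534, 0.0746 and 0.0776), and 2 further probe sets lay at 0.43 and -0.14 and were not called.

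The group of chromosome segregation also took in plk2b, plk3 and plk4, and plk2b is 1 of its genes called higher. Among its 16 genes, 3 were called higher and 1 lower, with a median of 0.08. These are 18.8% and 6.25% of the group, against 19.4% and 17% of all genes. The gene ttk, for the Mps1 kinase that starts spindle checkpoint signalling, had 739.6, 731 and 800.1 in retina with RPE, against 433, 465 and 484 in retina. The lowest pool with RPE was well over the highest retina pool, and the level was 1.64-fold higher (95% interval 1.44 to 1.88, log2 0.72 ± 0.087, adjusted p = 0.000473). A second checkpoint gene, bub1ba, for BubR1, had 312, 330.4 and 352 in retina with RPE, against 245, 213 and 212 in retina. The groups were apart here too, at 0.57 ± 0.0946 (adjusted p = 0.00204). The related gene bub1bb, at 0.21, and bub3, at 0.04, whose product binds BubR1, were not called. The gene cdc20, for the activator of the anaphase-promoting complex that the checkpoint restrains, had 808, 850.4 and 779 in retina with RPE, against 749, 603 and 761 in retina. These groups did not overlap, but the change of 0.21 was not called (adjusted p = 0.145), and it was called at 0.36 under cyclic loess (adjusted p = 0.0273) and at 0.38 under quantile normalization (adjusted p = 0.0218). The complex's own subunit genes cdc23, cdc26 and cdc27 lay between -0.04 and 0.12 and were not called.

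Centromere genes were mixed. The gene cenpk, for a protein of the inner kinetochore, was lower, with 141, 158 and 105 in retina with RPE, against 199, 192 and 205 in retina. The pools with RPE varied more than the retina pools, with retina with RPE 3 the lowest, and the change was -0.58 ± 0.136 (adjusted p = 0.00971). The motor gene cenpe lay at 0.25 and cenpt at 0.13, and neither was called. The gene cenps, at -0.34 with separate groups, was not called (adjusted p = 0.0654). The gene top2a, whose topoisomerase untangles sister chromatids, had 115, 127 and 134 in retina with RPE, against 122, 138 and 125 in retina, at -0.03, and none of its 5 probe sets, which ranged from -0.20 to 0.27, was called. The polo-like kinase gene plk2b was higher at 0.27 (adjusted p = 0.0386), a call lost without any array other than retina 1 (adjusted p = 0.0771 to 0.116), and plk3, at -0.27, and plk4, the kinase of centriole duplication, at -0.08, were not called. Neither bub1 nor aurkb was analysed here.

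Of 6 genes with a cdkn or cdc34 symbol, 1 (16.7%) was called lower and none higher, against 17% and 19.4% of all genes. The inhibitors among the 6, which hold cells out of the cycle, gave no call by their brightest probe sets. The gene cdkn1bb, related to mammalian p27, had 488, 522 and 535 in retina with RPE, against 598, 960.4 and 594 in retina. The groups were apart, retina 2 was far over the other retina pools, and the change of -0.44 ± 0.167 was not called (adjusted p = 0.0653). Its other probe set had 222, 226 and 166 in retina with RPE, against 532, 426 and 299 in retina, and was called lower at -1.01 ± 0.196 (adjusted p = 0.00424). Both probe sets listed for cdkn1bb alone thus lay below 0, by different amounts. A probe set listed for cdkn1bb together with yars2, left out of these counts, lay at 0.15 and was not called (adjusted p = 0.247). The gene cdkn1ca, related to p57, was at 0.05 and cdkn3, for a phosphatase of Cdk2, at -0.02, both without a call. The genes cdkn1a, cdkn1b and cdkn1c were not analysed here. The genes of the Cdc34 ubiquitin-conjugating enzymes, which mark inhibitors for destruction in yeast, lay at 0.01 (cdc34a) and -0.07 (cdc34b) and were not called. The gene cdkn2aipnl shares a symbol stem with the inhibitors but is not counted as an inhibitor here. It had 648, 647 and 595 in retina with RPE, against 1103, 948 and 1154 in retina, without overlap, at -0.76 ± 0.0981 (adjusted p = 0.000626).

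The other 22 genes carry a cdk, cdc, ccnd, pold or prim symbol and have roles outside these steps or none assigned here. Of them 2 were called higher and 3 lower, or 9.09% and 13.6%, against 19.4% and 17% of all genes. The median of the 22 genes was -0.03. The phosphatase gene cdc14b was higher, with 1076, 1155 and 1044 in retina with RPE, against 737, 772 and 863 in retina (log2 0.47 ± 0.0928, adjusted p = 0.00469). The gene cdkal1, for an enzyme that modifies transfer RNA in mammals, was lower, with 191, 214 and 201 in retina with RPE, against 279, 285 and 256 in retina (log2 -0.44 ± 0.0886, adjusted p = 0.00519). Both kept their calls without any single array. The gene cdk5r2a, for an activator of the neuronal kinase Cdk5, was lower at -0.33 (adjusted p = 0.0158) and lost its call without retina with RPE 2 (adjusted p = 0.0606). The kinase gene cdkl1 was higher at 0.34 (adjusted p = 0.0251), a call lost without retina 1, retina with RPE 2 or retina with RPE 3 (adjusted p = 0.0748 to 0.0906). The gene cdk11b was called lower at -0.35 by its brightest probe set (adjusted p = 0.0293) and higher at 0.43 by another (adjusted p = 0.0204), and the first call was lost without any array other than retina 1. The gene cdk2ap2, at 0.03, and the transcription kinases cdk7, cdk8 and cdk9, at -0.09, 0.08 and -0.19, were not called. In all, the 17 genes of this kind without a call lay between -0.29 and 0.29 by their brightest probe sets. Dimmer probe sets of cdk13 and cdc37l1 were called lower, at -0.31 (adjusted p = 0.0241) and -0.43 (adjusted p = 0.00372).

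How far single probe sets can be trusted was read from the 17 members with more than 1. They had 41 probe sets in all. In 10 genes every probe set changed in 1 direction, and in 7 the signs differed. The brightest probe set was called in 7 of the 17 genes. Of these called genes, ccnb3, cdc25b, cdk11b, e2f4 and mcm3 had a probe set of the other sign, and pold1 and rfc4 did not. In 3 genes, ccnb3, cdk11b and e2f4, probe sets were called in opposite directions. In ccnb3 and e2f4 the probe sets called against the brightest were far dimmer, with group means of 19.4 to 37.7. The other 81 members, among them orc6, mcm7, prim1, pole3, e2f3, e2f7, e2f8, ccnb2, ttk and bub1ba, had 1 probe set and no such check. The plot of genes with several probe sets shows the distances.

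**Figure D3:**
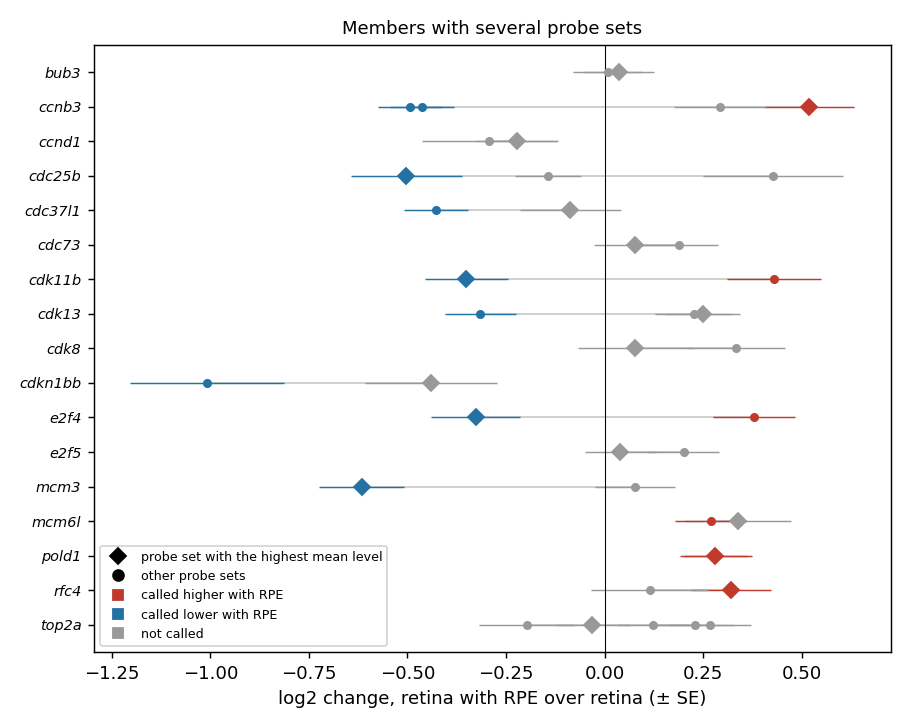
Log2 change of retina with RPE over retina, with the standard error, for every probe set of the 17 genes with more than 1; diamonds mark the probe set with the highest mean level, circles the others, and colours the call. Probe sets of ccnb3, cdk11b and e2f4 lie on both sides of 0 with calls each way, and those of pold1 coincide.

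The direction of change went with level over the whole array. With all genes cut by mean level into 3 classes of equal size, the low class had 25.6% called higher and 4.09% lower, the middle class 23% and 18.8%, and the high class 9.59% and 28.2%. Most members, 52, lay in the high class, with 33 in the middle and 13 in the low class. In the high class 11 members were called higher and 12 lower, which is 21.2% and 23.1% of those members. Their median log2 change was 0.03, against -0.11 for all genes there. In the middle class 4 members were called higher and 5 lower, or 12.1% and 15.2%. The median there was -0.06, against 0.04 for all genes of that class. In the low class 1 member was called higher and 1 lower, or 7.69% each, with a median of 0.04, against 0.13. Fork and mitotic entry genes had their median level in the high class, and licensing, E2F and segregation genes in the middle class. The shares over all genes given beside these groups are thus not matched for level. The genes ttk, prim1, rrm1 and, by its brightest probe set, ccnb3 are among the 11 bright members called higher. The plot of change against level shows the members over the field of all genes. Calls also differed with the letter A or S in a probe set's identifier. Of members represented by an A probe set, 6 of 37 were called higher and 9 lower, and of those with S, 10 and 9 of 61. Over all genes, A probe sets had 16.7% called higher and 20.7% lower, and S probe sets 22.3% and 13.2%.

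**Figure D4:**
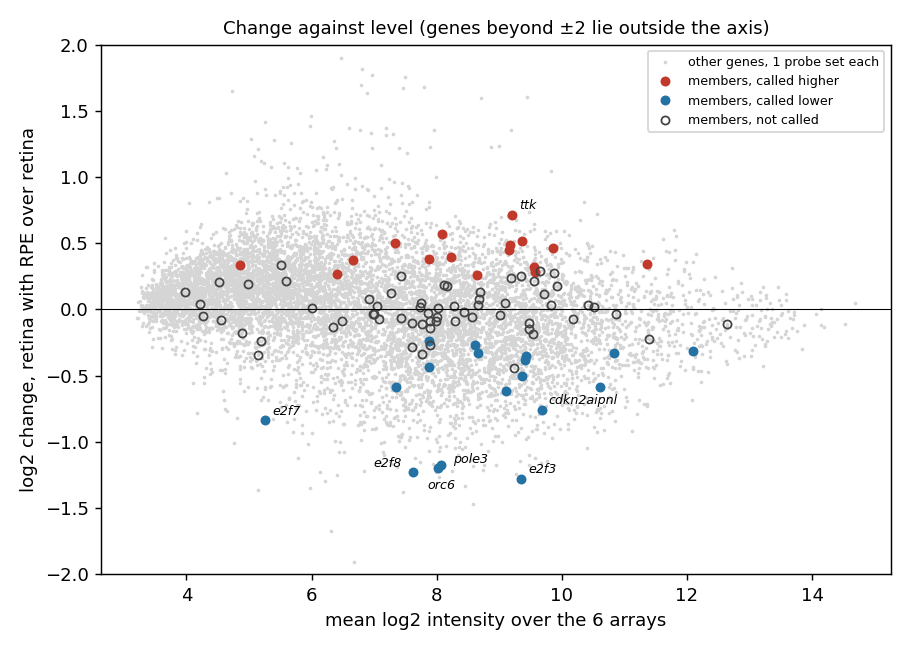
Log2 change of retina with RPE over retina against the mean log2 intensity over the 6 arrays, for the 98 members over all other genes in grey. The field of all genes tilts downward to the right, and the members e2f3, e2f8, orc6, pole3 and e2f7 lie low in it.

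Levels of the role groups were also read array by array, as the median over a group's genes of the log2 level minus the gene's own retina mean. In the E2F group these medians were -0.59, -0.54 and -0.63 in retina with RPE, against -0.02, 0.06 and -0.05 in retina. Licensing genes had -0.18, -0.23 and -0.11 in retina with RPE, against -0.07, 0.05 and 0.07 in retina, with all pools with RPE below all retina pools. Fork genes had 0.06, 0.13 and 0.19 in retina with RPE, against -0.05, -0.03 and 0.08 in retina, and overlapped through retina 3. Mitotic entry genes had 0.12, 0.30 and 0.21 in retina with RPE, against -0.06, -0.07 and 0.16 in retina, again with retina 3 inside the range of the pools with RPE. Over all genes the medians were 0.03, 0.03 and 0.04 in retina with RPE, against -0.01, 0.00 and 0.01 in retina. The plot of role medians by array gives every group.

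**Figure D5:**
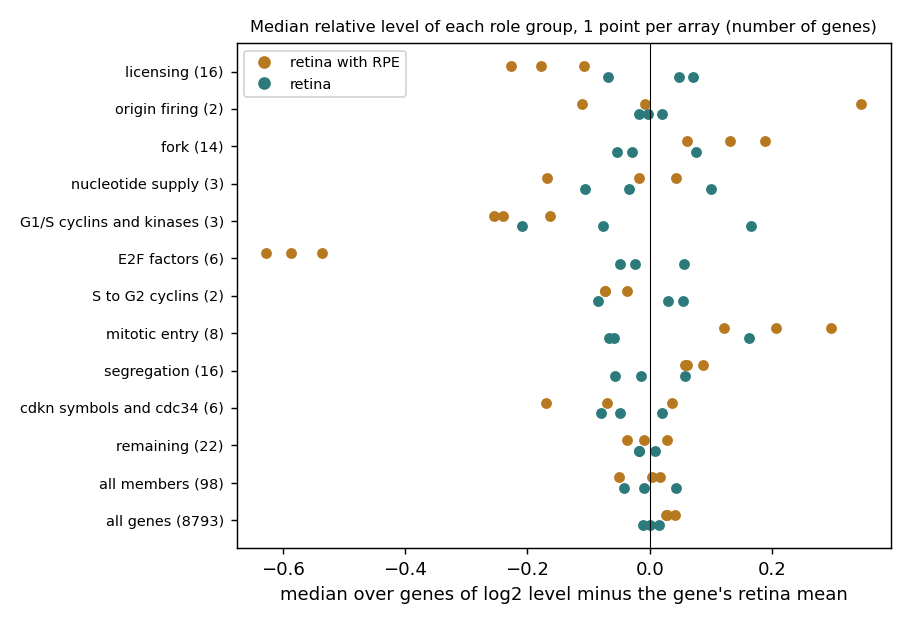
Median over the genes of each role group of the log2 level minus the gene's retina mean, 1 point per array, with the number of genes in brackets. The E2F points of retina with RPE stand apart from the retina points, licensing points are separate by less, and most other groups overlap.

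The split between higher and lower members depended on how the arrays were scaled. Of the calls, 47.1% were higher as reported, with 16 higher and 18 lower. Cyclic loess gave 19 and 12, or 61.3% higher, quantile normalization 20 and 12, or 62.5%, and centring on ribosomal protein genes 16 and 11, or 59.3%. For all genes the same shares were 53.3% as reported and 51.8%, 53.5% and 62.9% under these scalings. Licensing genes called lower numbered 3 under cyclic loess and under quantile normalization in place of 6, whereas orc6, mcm3, mcm7, pole3, e2f3, e2f7 and e2f8 stayed called lower and ttk, bub1ba, prim1 and ccnb2 stayed called higher under all 3 scalings. Cyclic loess and quantile normalization both ended the calls of mcm4, rrm2l, e2f4, cdc25b, plk2b, cdk11b, cdk5r2a and cdkl1, and left their signs as they were.

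Cell cycle genes outside these symbols came from a list of 94, of which 73 were measured. In retina with RPE 8 were called higher and 20 lower, that is 11% and 27.4%, and the median log2 change was -0.08. The changes ran from -0.90 for ccng2 to 0.66 for racgap1. Over all genes 19.4% were called higher and 17% lower, with a median of 0.04, and over the high class by level, in which this list has its own median level, the shares were 9.59% and 28.2%. The genes given here were picked after their values were seen, and most are set beside related genes of the list. Their values are those of the brightest probe set as reported. No other probe set, scaling or fit without an array is given for them. Of the pocket protein genes, which bind E2F, rb1 was lower at -0.43, and rbl1, at 0.32, was not called. Of the genes for E2F partners, tfdp2 was lower at -0.60, and tfdp1a and tfdp1b, at -0.27 and -0.20, were not called. The MuvB complex gene lin9 was lower at -0.84, and lin54, at 0.17, was not called. The gene foxm1, for a transcription factor of mitotic genes, was lower at -0.87. The checkpoint kinase gene chek1 was lower at -0.73, and chek2, at 0.05, was not called. Of the replication protein A genes, whose products coat single-stranded DNA, rpa3 was lower at -0.65, and rpa1 and rpa2, at -0.06 and 0.09, were not called. Of genes for the GINS complex, which joins MCM and cdc45 in the moving helicase, gins4 was lower at -0.71 and gins3 at -0.38, and gins1 and gins2, at 0.14 and 0.05, were not called. Genes of late mitosis were called in both directions. In the chromosomal passenger complex incenp was higher at 0.59, birc5a lower at -0.34, and birc5b, at -0.02, was not called. At the central spindle racgap1 was higher at 0.66 and its partner ect2 lower at -0.46. There prc1b was also higher, at 0.33, and prc1a, at 0.11, and kif23, at -0.11, were not called. The proliferation marker mki67 was higher at 0.55 ± 0.0967, with 1059 ± 94.4 in retina with RPE and 722 ± 47.8 in retina (SD, n = 3 each, adjusted p = 0.00264).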

How the data were processed

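The authors deposited linear intensities for each probe set on each array. Per the submitters' processing notes they used RMA, the affy package and R 2.2.0, in no stated order, and the sources used here do not say whether more arrays were normalized together with these. Of 15617 probe sets, 115 controls were left out. Intensities were put on a log2 scale and the groups compared with limma 3.58.1 under R 4.3.3, as a 2-sided test with Benjamini-Hochberg adjustment over 15502 probe sets. A call is an adjusted p under 0.05. Gene names came from the platform annotation, which lists 10795 probe sets with 1 gene, 135 with several and leaves out 4572. Of the 98 member symbols, 97 stand in a current gene list.

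The members, role groups and lists were chosen with earlier results of these data known. The members named by rule were up to 4 called genes with separate groups in each direction of each role group, the brightest of each group, and a short set of known genes. Other members were named after their values were seen. An exact permutation test of 3 pools against 3 gives at best p = 0.1. The limma test, which shares its variance estimate across the array, can go lower, and so can the ordinary test per probe set. The number of arrays limits the precision, and the p-values measure the spread between these pools only. No detection call comes with the values, so a fold of a dim gene may understate its change. The alternatives were other scalings, a filter on dim probe sets, a pseudocount of 16, other limma settings, an ordinary test per probe set, the replicate block, stricter thresholds, other choices of probe set, and leaving out each array.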

Additional observations from a re-analysis of the deposited data

Results flagged for a closer look

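Bacterial poly-A control probe sets, which no comparison above uses, read higher in retina with RPE. The median fold of 12 such probe sets was 1.54, with a range of 1.07 to 3.38, and in 9 of them every array with RPE was over every retina array. Such RNAs are added as controls of labelling, and the labels do not say how much was added here. Their relation to the changes of the cell cycle genes was not tested.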

How the results depend on the processing

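Of 30 named genes that were called, 8 kept their call in every setting that held their probe set, 4 of them (mcm3, orc6, pole3 and ttk) in all 19 settings tried, 22 lost it in at least 1, and 4 of these 22 had the other sign in at least 1; leaving out single arrays ended the call of 13. Against 16 genes called higher, 18 lower and a median log2 change over the members of -0.03 as reported, the median was 0.0458 under cyclic loess, 0.0536 under quantile normalization and 0.0191 with centring on ribosomal protein genes, which called 11 lower. The ordinary test per probe set called 6 higher and 11 lower, an adjusted p under 0.01 called 7 and 10, a minimum of 1.5-fold 1 and 7, and probe sets marked S called 9 lower of 66 genes. The probe sets called, all tested ones counted, numbered 5355 as reported, 3112 without dim probe sets, 2331 by the ordinary test, 2666 at the stricter threshold, 1416 with the fold minimum and 2279 with S only. Without each array in turn, 7 to 17 members were higher, 11 to 17 lower, the median was -0.0499 to 0.0106 and 3439 to 5104 probe sets were called. The stricter threshold, the fold minimum and the removal of probe sets lower the counts of calls by construction. Leaving out an array leaves fewer pools to test, and the ordinary test shares no variance estimate across the array, so both have less power by design. Counts of members moved both ways without single arrays, and how much of the change comes from the lower power was not tested. For the scalings the cause was not tested either.

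Signs turned without a call in genes near 0: under cyclic loess mcm5 lay at 0.0414, pcna at 0.0176, plk1 at 0.11 and cdc34b at 0.0694; under quantile normalization mcm5 at 0.0576, cdk2 at 0.00177, plk1 at 0.13 and cdc34b at 0.0975; with ribosomal centring plk1 at 0.0148 and top2a at 0.0159; and with array weights mcm2 at -0.00286. The median over probe sets put e2f4 at 0.0256, ccnb3 at -0.0843, cdc25b at 0.43 and cdk11b at 0.0401, and S only put cdk11b at 0.43, called higher. With each array left out in turn, values that crossed 0 ranged from -0.0481 to 0.11 for mcm2, -0.17 to 0.0607 for cdc34b, -0.0707 to 0.18 for cdk2ap2, -0.0306 to 0.0698 for bub3, -0.0813 to 0.0296 for top2a and -0.0876 to 0.0078 for plk1.

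Replicate numbers are shared between the groups, but the study's design text calls the pools independent. Deviations of arrays of the same number correlated at 0.175, 0.0786 and 0.13 over probe sets, so the numbers were not taken to pair the samples. Every array did correlate best with the array of its own replicate number, a hint from the data and not from the design. The sample titles also hold internal names, and for retina with RPE their numbers differ in part from the replicate numbers. By the internal names retina with RPE 2 would go with retina 3, and these correlated at -0.0737. The internal names of retina with RPE skip a number, and whether a pool was left out is not known here. With the replicate number as a block, 17 members were higher, 19 lower and 5786 of the probe sets called, all tested ones counted.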
